A study of Mus musculus with 14 samples.

Results

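The cyclins of the D type, Ccnd1, Ccnd2 and Ccnd3, and the kinases they bind, Cdk4 and Cdk6, were followed through every data set of a study of neural stem cells (NSCs) taken from the adult mouse sub-ventricular zone. The 5 genes were chosen by name, as the complete set of D cyclins and their catalytic partners, out of 33800 genes in the single-cell tables, and all 5 were measured in every library. The 14 samples fell into 3 experiments. In the first, wildtype NSCs in culture were sequenced cell by cell after 3 days with BMP4 (bone morphogenetic protein 4), known to hold NSCs in quiescence, or 3 days with EGF (epidermal growth factor), a mitogen that keeps them active, with 1 library each; the time with EGF is given by the sample label only. In the second, untreated NSCs isolated directly from wildtype mice, the control for Aplp1, and from Aplp1-/- mice gave 1 library each, and a companion library of antibody-bound hash tags per genotype marked the cells of 3 mice. The tags sat on antibodies against MHC1 and CD45. In the third, untreated neurospheres (floating NSC cultures) were lysed and RNA was recovered with an antibody against CPEB4, an RNA-binding protein of the cytoplasmic polyadenylation element family. This RNA immunoprecipitation (RIP) gave 2 libraries each of wildtype input, wildtype IgG control, wildtype CPEB4 precipitate and CPEB4-/- CPEB4 precipitate. Aplp1 and CPEB4 were deleted without a Cre driver or a cell type being named in the labels, and no label says whether replicates were separate cultures or animals, so the p-values below measure only the spread between these samples.

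D cyclins are the regulatory subunits that couple mitogen signals to the cell cycle. They bind Cdk4 or Cdk6, and the active complexes phosphorylate the retinoblastoma family of pocket proteins, which releases E2F transcription factors and allows cyclin E and Cdk2 to carry the cell into S phase. INK4 inhibitors block Cdk4 and Cdk6 directly, and in the neurogenic niche Cdk6 and Ccnd2 are known for their part in the expansion of progenitors and the production of adult-born neurons.

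All 5 are protein-coding genes. On the mouse GRCm38 assembly, RefSeq places Ccnd1 (ENSMUSG00000070348) on chromosome 7 at 144929931 to 144939831 and Ccnd2 (ENSMUSG00000000184) on chromosome 6 at 127125162 to 127152188. Ccnd3 (ENSMUSG00000034165) lies on chromosome 17 at 47505051 to 47599689, Cdk4 (ENSMUSG00000006728) on chromosome 10 at 127063535 to 127067288, and Cdk6 (ENSMUSG00000040274) on chromosome 5 at 3341004 to 3531008. Neighbouring gene models overlap 3 of them: LTO1 overlaps Ccnd1 by 818 bases, Bysl overlaps Ccnd3 by 359 bases, and Tspan31 overlaps Cdk4 by 2 bases. No source used here gives the strand setting of the counting, so reads in these overlaps cannot be assigned with certainty.

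The culture libraries held 887 (BMP4) and 1410 (EGF) cells with a median of 17355 and 22867 counts per cell, and the fresh libraries held 2209 (wildtype) and 1879 (Aplp1 knockout) cells with medians of only 364 and 424. Between 1 and 13 cell barcodes were shared by any pair of these libraries. RIP libraries held 10054346 to 17466296 counts over 27144 genes. The summed level of 12 quiescent NSC and astrocyte markers was 13731 counts per 1000000 library counts (CPM) with BMP4 and 2769 CPM with EGF, and that of 12 active NSC markers was 360 and 2151 CPM; none of the 24 was at 0 in either culture. Of 10 microglia markers, 7 and 6 were at 0 with BMP4 and EGF. Aplp1 itself had 217 CPM in the fresh wildtype library and 44.0 CPM in the library labelled Aplp1 knockout, so the transcript was lower but detected there. Cpeb4 had 286 and 110 CPM in the precipitates labelled CPEB4 knockout against 236 and 77.0 CPM in the wildtype precipitates, so the transcript level did not set the labels apart. The deposited counts do not show which part of either gene was deleted.

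In culture the D cyclin transcripts divided by growth factor: Ccnd2 dominated with BMP4, and Ccnd1 joined it at a similar level with EGF. With 1 library per condition there is no replicate check and no test; the intervals below are exact 95% intervals that cover counting error only. Ccnd1, the cyclin classically induced by mitogens, stood at 26.2 CPM (454 counts) with BMP4 and 987 CPM (33179 counts) with EGF, a ratio of 37.7 (interval 34.3 to 41.4). Ccnd2 went the other way, from 4307 CPM (74566 counts) with BMP4 to 1133 CPM (38058 counts) with EGF, and was 3.80-fold higher with BMP4 (3.76 to 3.85). Ccnd3, the most broadly expressed of the family, was nearly level at 77.4 and 90.05 CPM, a ratio of 1.16 (1.09 to 1.24). Summed over the 3 cyclins, the D cyclin pool was larger with BMP4, 4410 CPM against 2210 CPM. Ccnd2 made up 97.7% of that pool with BMP4 and 51.2% with EGF, and Ccnd1 0.595% and 44.7%. Counts of transcript 3′ ends are not divided by length, so these shares assume equal capture of the 3 transcripts.

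Of the kinases, Cdk4 followed Ccnd1 in direction and Cdk6 differed little. Cdk4 had 153 CPM with BMP4 and 613 CPM with EGF, 4.01-fold higher with EGF (3.85 to 4.18). Cdk6 was scarce in both cultures, at 20.04 and 27.4 CPM, a ratio of 1.37 (1.21 to 1.55). Thus 3 of the 5 genes differed by 2-fold or more, Ccnd1 and Cdk4 higher with EGF and Ccnd2 higher with BMP4. Of 14502 genes compared in the same way, 15.9% were 2-fold or more higher with EGF and 23.1% with BMP4, so differences of this size were common between these libraries. Scaling by the trimmed mean of M-values (TMM) moved the median of all genes by 0.20 on the log2 scale and gave EGF to BMP4 ratios of 43.1 for Ccnd1, 0.301 for Ccnd2, 1.33 for Ccnd3, 4.59 for Cdk4 and 1.57 for Cdk6, the same directions. The growth factors, the libraries and the number of cells in cycle differ together here.

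**Figure D1:**
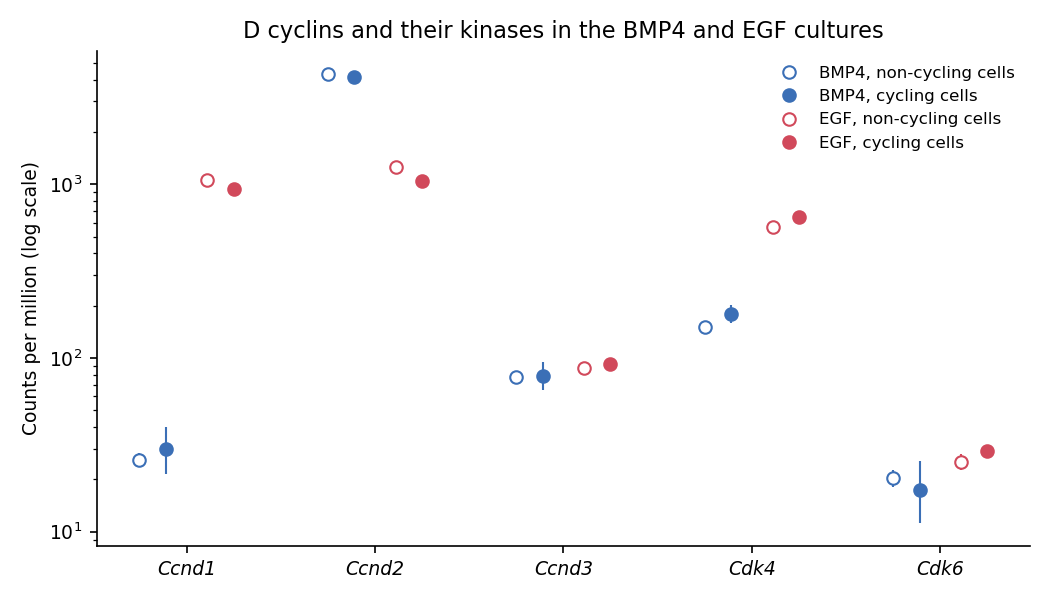
Level of each gene in CPM (log axis) in non-cycling (open) and cycling (filled) cells of the BMP4 and the EGF culture, with exact 95% Poisson intervals for counting error. The gap between cultures for Ccnd1, Ccnd2 and Cdk4 is far wider than that between cycling and non-cycling cells of one culture.

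The same contrast held cell by cell. To compare cells at equal depth, each was thinned at random to 4500 counts. Ccnd1 was then detected in 7.67% of BMP4 cells and 96.4% of EGF cells (22.9% and 99.9% before thinning), and its median was 0 and 4 counts per cell. Ccnd2 was detected in 99.8% and 96.5% (100% and 99.8% before thinning), with medians of 18 and 5 counts. The ranges of both cyclins overlapped between the cultures. No cell type known to lack these genes was present, so the share that free RNA alone would give was not measured.

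Within single cells, Ccnd1 exceeded Ccnd2 in 1 of 887 BMP4 cells and in 545 of 1410 EGF cells (38.7%). Ccnd2 exceeded Ccnd1 in 885 BMP4 cells (99.8%) and in 684 EGF cells (48.5%), and the counts were equal in 0 and 175 cells (12.4%). EGF cells therefore mostly carried both transcripts, not one or the other: 1316 of them (93.3%) had at least 1 thinned count of each, against 67 BMP4 cells (7.55%). All 3 D cyclins were detected in 436 EGF cells (30.9%) and 18 BMP4 cells (2.03%).

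**Figure D2:**
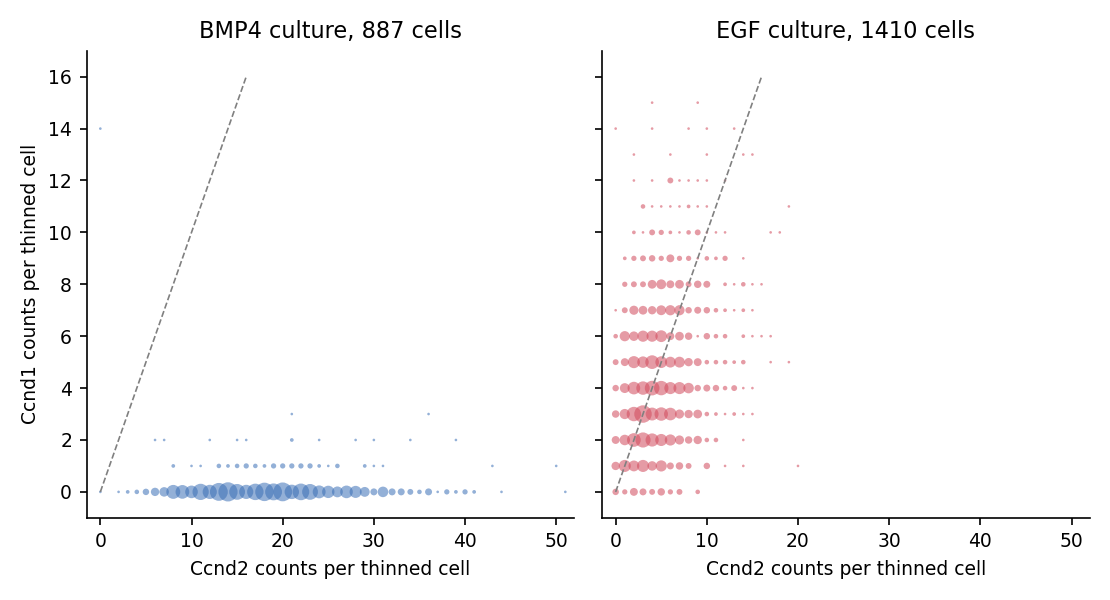
Counts of Ccnd1 and Ccnd2 per cell after thinning to 4500 counts, for the 887 BMP4 and 1410 EGF cells; circle area gives the number of cells and the dashed line marks equal counts. BMP4 cells lie along the Ccnd2 axis apart from 1 cell with 14 Ccnd1 and 0 Ccnd2 counts, and EGF cells spread to both sides of the line.

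That single BMP4 cell weighed on the Ccnd1 level. It held 88 of the 454 Ccnd1 counts of its library (19.4%) in 0.252% of all counts, where no other BMP4 cell had more than 13, and it also held 393 of the 418 counts of Mbp, a myelin gene of oligodendrocytes. Without it Ccnd1 stood at 21.2 CPM with BMP4 and the ratio was 46.6 (42.0 to 51.8).

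For the kinases, thinned cells showed Cdk4 in 49.7% of BMP4 and 92.1% of EGF cells, with medians of 0 and 3 counts (88.5% and 99.8% before thinning). Cdk6 was seen in 7.78% and 11.3% (26.7% and 36.03% before thinning), which is near the limit of detection in both cultures. Cdk4 without Cdk6 was the most frequent state in both cultures, in 1149 EGF cells (81.5%) and 412 BMP4 cells (46.4%). With BMP4 it was only just ahead of cells with neither kinase. Neither kinase was detected in 101 EGF cells (7.16%) and 406 BMP4 cells (45.8%). Ccnd3 was detected in 29.9% of BMP4 and 33.3% of EGF cells (71.3% and 83.3% before thinning).

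Levels of the 5 genes differed little between cells of one culture classed as cycling and as non-cycling by marker counts. A cell was called cycling when its thinned counts held Mki67, Top2a or Cdk1, a proliferation marker, a topoisomerase and the mitotic kinase. This took in 64 BMP4 cells (7.22%, interval 5.60% to 9.12%) and 759 EGF cells (53.8%, 51.2% to 56.5%), of which 41 and 307 had exactly 1 such count. Before thinning, 169 BMP4 and 1112 EGF cells held such a count. Only 298 EGF cells had none before thinning, against 651 called non-cycling here. The non-cycling class is thus not free of cells with marker counts that thinning removed. With EGF, Ccnd1 stood at 936 CPM in cycling and 1059 CPM in non-cycling cells, a ratio of 0.884 (0.865 to 0.903). Ccnd2 was likewise lower in cycling cells, 1044 against 1256 CPM, a ratio of 0.832 (0.815 to 0.849). Cdk4 was higher, 647 against 566 CPM, a ratio of 1.14 (1.11 to 1.17). For Ccnd3 (91.9 and 87.5 CPM) and Cdk6 (28.9 and 25.3 CPM) the intervals of the ratio, 0.976 to 1.13 and 0.999 to 1.31, included 1.

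With BMP4 the differences were of the same size. Ccnd2 had 4124 CPM in cycling and 4323 CPM in non-cycling cells, a ratio of 0.954 (0.929 to 0.979), and 1.10 when cells were classed without thinning. Cdk4 had 180 and 150 CPM, a ratio of 1.20 (1.05 to 1.36). Ccnd1 had 29.7 and 25.9 CPM (ratio 1.15, 0.818 to 1.57), Ccnd3 78.8 and 77.3 CPM, and Cdk6 17.3 and 20.3 CPM (0.852, 0.543 to 1.28), with intervals that spanned 1.

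None of these 10 ratios reached 2-fold in either direction. The background was 4.3% of 13517 genes higher and 2.13% lower by 2-fold with EGF, and 7.25% higher and 6.31% lower of 13094 genes with BMP4. When cycling cells were instead those with 3 or more counts of 48 S and G2/M phase genes, Ccnd1 with BMP4 passed 2-fold. It had 54.4 against 20.8 CPM (2.62, 2.14 to 3.19), and the cycling class then held the cell with 88 counts. That cell gave 88 of the 153 Ccnd1 counts of the class, so the ratio rested largely on 1 cell. The interval does not cover this. By these lists the ratio with EGF was 0.700 (0.681 to 0.718) for Ccnd2, 1.39 (1.12 to 1.75) for Cdk6 and 1.15 (1.03 to 1.29) for Ccnd3. Those intervals excluded 1. For scale, 5 other cell cycle genes chosen after earlier results were seen are given. Mcm2, a subunit of the replicative helicase, was 8.74-fold higher in cycling cells with BMP4 and 1.46-fold higher with EGF. Ccne1, a cyclin E, was 4.36-fold and 1.35-fold higher, and Cdkn2c, an INK4 inhibitor of Cdk4 and Cdk6, 5.15-fold and 2.71-fold. The CIP/KIP inhibitors Cdkn1b (ratios 1.10 and 1.44) and Cdkn1a (1.06 and 1.34) stayed under 2-fold like the 5 genes.

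Compared within cells classed as non-cycling only, the cultures still differed as a whole. In both cultures this class held cells that had marker counts before thinning. Ccnd1 was 40.9-fold higher and Cdk4 3.77-fold higher with EGF, and Ccnd2 was 3.44-fold higher with BMP4. Ccnd3 and Cdk6 had ratios of 1.13 and 1.25. The makeup of the D cyclin pool also hardly differed between the cycling and non-cycling classes. With EGF, Ccnd1 made up 45.2% of the pool in cycling and 44.1% in non-cycling cells, and with BMP4 Ccnd2 made up 97.4% and 97.7%.

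A finer ordering of EGF cells by their counts of S and G2/M genes showed gradual shifts. From the 47 cells with no such count to the 372 cells with 21 or more, Ccnd2 went from 1575 to 995 CPM and was lower in each successive bin. Ccnd1 went from 1173 to 915 CPM, also lower in each bin. Cdk4 went from 473 to 659 CPM and was level over the last 2 bins. Ccnd3 varied between 77.6 and 103 CPM, and Cdk6 between 17.9 and 29.2 CPM, with no steady order. With BMP4, Cdk4 went from 139 CPM in 317 cells without a phase count to 228 CPM in the 20 cells with 11 to 20. In the 15 cells with 21 or more, Cdk4 stood at 281 CPM (228 to 344). Ccnd2 had 4354, 3966 and 3908 CPM in the same bins.

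**Figure D3:**
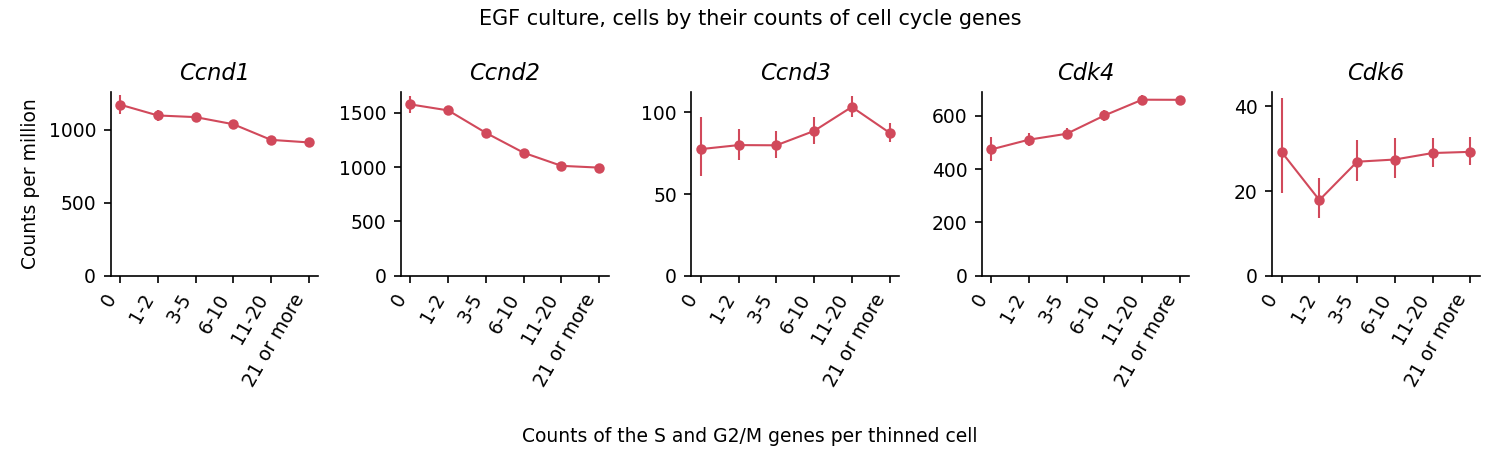
Level of each gene in CPM (linear axes from 0) in EGF cells grouped by their thinned count of S and G2/M phase genes, with exact 95% Poisson intervals. Ccnd1 and Ccnd2 are lower and Cdk4 is higher in cells with more phase counts, each by less than 2-fold.

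Around the 5 genes, more pathway genes were higher with EGF than with BMP4. Of 43 pathway genes in 8 lists, 42 could be compared. Of these, 15 were 2-fold or more higher with EGF and 4 with BMP4, beside 15.9% and 23.1% of all genes compared. Their median log2 ratio was 0.67 against -0.15 over all genes. The list of cyclin E and its kinase was higher with EGF in 4 of 4 members, the E2F and DP factors in 5 of 10 and the transcription factors on the mitogen side, such as Myc, in 3 of 4. E2f8 and E2f7, the atypical repressor E2Fs, had the largest ratios: E2f8 had 1.79 CPM with BMP4 and 16.8 CPM with EGF (9.36-fold, 6.52 to 13.9) and E2f7 had 1.39 and 9.61 CPM (6.93-fold, 4.58 to 11.0). The pocket proteins that D cyclin kinases phosphorylate were split. Rb1 was 2.71-fold higher with BMP4 (31.4 against 11.6 CPM, 2.37 to 3.09) and Rbl2, known for repressing E2F targets in resting cells, 2.66-fold higher (16.7 against 6.28 CPM, 2.22 to 3.19), while Rbl1 was 3.45-fold higher with EGF. Of 7 inhibitors 1 passed 2-fold, with EGF, and of the 3 subunits of the CDK-activating kinase and the 3 chaperones of Cdk4 none did. Among 8 genes of D cyclin turnover, 1 was higher with EGF and 2 with BMP4.

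In freshly isolated cells Cdk6 and Cdk4 were highest in the active-like class of the lineage, and Ccnd2 was high in active-like and neuroblast-like cells. Cells were clustered without the 5 genes and Aplp1, and clusters were named from markers. The quiescent NSC and astrocyte-like class held 1286 wildtype and 808 knockout cells, the active NSC and transit amplifying-like class 430 and 534, and the neuroblast-like class 281 and 264; 136 and 161 cells remained unnamed, and the rest were microglia, endothelial, mature neuron or oligodendrocyte-like. Each class was checked against its marker list: the quiescent list summed to 51333 and 47780 CPM in the quiescent-like class and 3779 and 2804 CPM in the active-like class, the active list to 340 and 386 CPM against 3567 and 4358 CPM, and the neuroblast list to 8613 and 9820 CPM in the neuroblast-like class. In the values below the wildtype library comes first and the library labelled Aplp1 knockout second. There is 1 library per genotype, and a class defined by clustering gives no test, so these are descriptions.

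Ccnd2 was the leading D cyclin of the fresh lineage in counts. It stood at 364 and 437 CPM in the quiescent-like, 3392 and 4026 CPM in the active-like and 4871 and 4189 CPM in the neuroblast-like class. The active-like level was 9.31-fold (7.96 to 11.0) and 9.21-fold (7.82 to 10.9) above the quiescent-like one, with both libraries at the same size of difference. Between neuroblast-like and active-like cells the ratio was 1.44 (1.31 to 1.57) and 1.04 (0.955 to 1.13), so Ccnd2 was still high in neuroblast-like cells. It made up 88.6% and 80.1% of D cyclin counts in the quiescent-like, 94.8% and 95% in the active-like and 98.9% and 99.7% in the neuroblast-like class.

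Ccnd1 was rare in fresh cells. It had 20.5 and 80.0 CPM (10 and 28 counts) in the quiescent-like, 152 and 175 CPM (58 and 96 counts) in the active-like and 32.6 and 11.6 CPM (5 and 2 counts) in the neuroblast-like class. The active to quiescent ratio was 7.41 (3.76 to 16.3) and 2.19 (1.43 to 3.47), and the libraries differed mainly in the quiescent-like class. Ccnd3 had 26.6 and 28.6 CPM, 34.0 and 36.5 CPM, and 19.6 and 0 CPM in the 3 classes, from 3 to 20 counts where any was found; 0 counts in the knockout neuroblast-like class allow up to 21.4 CPM. Its active to quiescent ratio was 1.28 in both libraries, with intervals that included 1.

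The kinases were both highest in the active-like class. Cdk6 had 170 and 343 CPM in the quiescent-like, 5185 and 5664 CPM in the active-like and 679 and 965 CPM in the neuroblast-like class. This was 30.5-fold (24.5 to 38.5) and 16.5-fold (13.8 to 19.999) higher in active-like than in quiescent-like cells, the widest active to quiescent ratio of the 5 genes, and the neuroblast-like level was 0.131 and 0.170 of the active-like one. Cdk4 had 178 and 171 CPM, 599 and 665 CPM, and 202 and 401 CPM in the same order, with active to quiescent ratios of 3.36 (2.62 to 4.36) and 3.88 (2.95 to 5.19). Cdk6 made up 89.6% and 89.5% of the kinase counts of active-like cells. Cdk6 counts were uneven between cells: active-like cells with any held 7.29 and 8.57 on average, and single cells reached 81 and 107. No source used here says whether these counts are molecules or reads. The intervals treat each count as independent, so they are too narrow where counts gather in few cells.

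**Figure D4:**
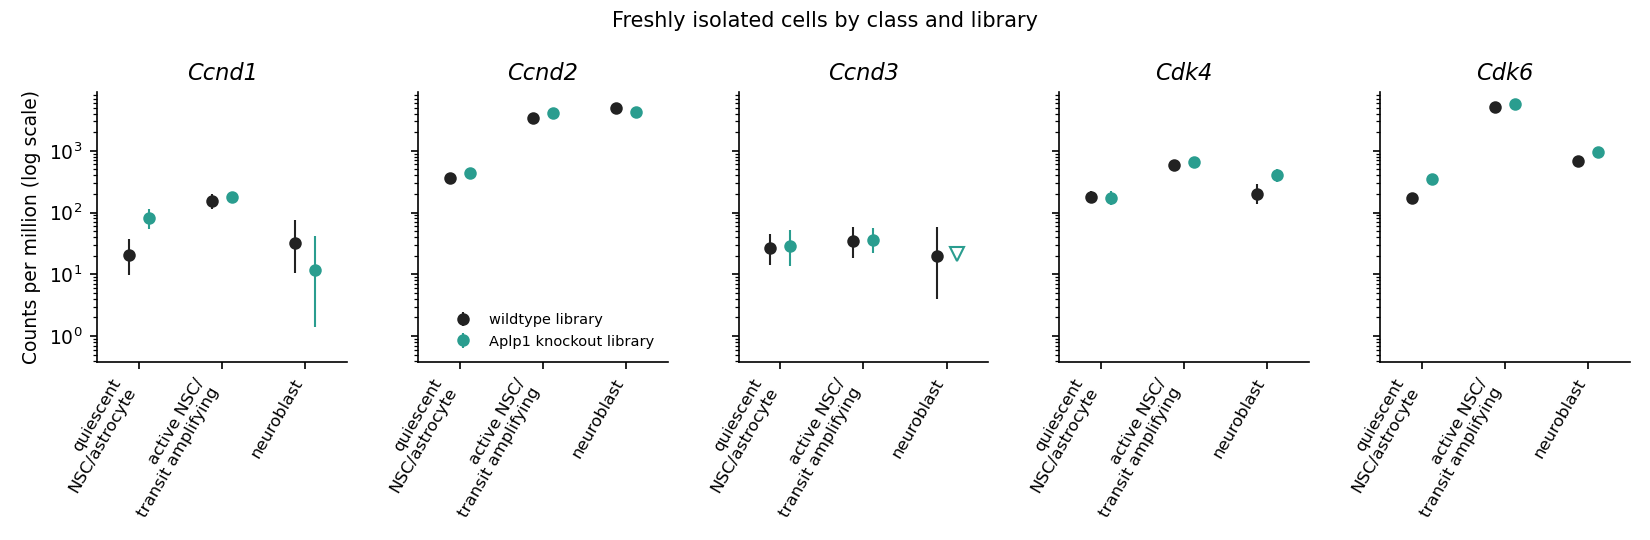
Level of each gene in CPM (log axis) in the quiescent-like, active-like and neuroblast-like classes of the fresh wildtype library and the library labelled Aplp1 knockout, with exact 95% Poisson intervals; the open triangle is the upper limit for 0 counts. Cdk6 and Cdk4 peak in the active-like class, and Ccnd2 is high in both the active-like and the neuroblast-like class.

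In all, 4 of the 5 genes, Ccnd1, Ccnd2, Cdk4 and Cdk6, were 2-fold or more higher in the active-like than the quiescent-like class in both libraries; 14.7% of 6790 genes were, and 19.6% were lower. From active-like to neuroblast-like cells, Ccnd1 and Cdk6 were lower by 2-fold or more in both libraries (Ccnd1 at 0.215 and 0.0663 of the active-like level), against 15.8% of 5016 genes, and none was higher, against 5.46%. With each cell given the class of most marker counts, Cdk6 was at 0.438 and 0.597 of the active-like level and no longer passed in the knockout library. The size of these ratios depended on how classes were drawn. By the same marker counts, the active to quiescent ratio was 4.07 and 4.14 for Cdk6, 4.83 and 3.38 for Ccnd2 and 2.03 and 2.63 for Cdk4, and Ccnd1 was 1.85 in the knockout library. With cells of 300 or more detected genes it was 10.5 and 7.45 for Cdk6 and 4.09 and 5.21 for Ccnd2, and Ccnd3 passed on few counts (4.37, interval 0.657 to 186, in the wildtype library), so that all 5 did; with coarser clusters (resolution 0.5) Ccnd1 was 1.47 in the knockout library and 3 of 5 passed. Cells of the smaller quiescent-like clusters carried more: 2 of these clusters, of 62 and 60 cells, had Ccnd2 at 1898 and 1555 CPM and at 3801 and 2530 CPM. Over clusters of 500 or more cells only, the active to quiescent ratio was 59.4 and 35.3 for Cdk6, 17.8 and 14.5 for Ccnd2 and 13.8 and 3.14 for Ccnd1.

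Overlapping genes were often counted in the same fresh cells. There, 25 of 27 wildtype and 28 of 29 knockout cells with Ccnd3 also had Bysl, and all 59 and 45 cells with Tspan31 had Cdk4. Counts of LTO1, 84 and 139, were close to those of Ccnd1, 82 and 161. Of the fresh cells with Ccnd1, 32 of 48 wildtype and 69 of 89 knockout cells also had LTO1. Leaving out cells with a neighbour count therefore removes most cells with Ccnd1 or Ccnd3, and their values cannot be freed of the overlap in this way. In the cultures LTO1 and Bysl were less of the sum than in fresh cells. LTO1 had 333 counts against 33179 of Ccnd1 with EGF, and 87 against 454 with BMP4. Bysl had 710 counts against 3026 of Ccnd3 with EGF, and 239 against 1340 with BMP4. Tspan31 was more of the sum with BMP4, at 2279 counts against 2645 of Cdk4. With EGF it had 3942 against 20598, and in the fresh libraries 86 against 390 and 67 against 522.

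Over the lineage the pathway lists split. Of 43 pathway genes 29 had enough counts, and 11 were 2-fold or more higher and 5 lower in active-like than quiescent-like cells in both libraries, beside 14.7% and 19.6% of all genes compared; the lower count is near that background. The higher ones included 3 of 3 measured members of the cyclin E list, 3 of 6 E2F and DP factors and 2 of 3 Cdk4 chaperones, and 1 of 4 inhibitors, Cdkn2c, which had 2.05 and 14.3 CPM in quiescent-like and 70.6 and 71.2 CPM in active-like cells. Mycn, a Myc family factor of neural progenitors, had 22.5 and 45.7 CPM and then 277 and 342 CPM. It was the only higher one of 4 measured transcription factors on the mitogen side. The other 3, Myc, Tcf7l2 and Gli1, were 2-fold or more lower in active-like cells in both libraries. Neither of the 2 pocket proteins that could be compared passed 2-fold. From active-like to neuroblast-like cells 11 of 26 were lower and 0 higher, beside 15.8% and 5.46% of all genes compared.

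Comparing genotypes over mice, Ccnd2, Cdk4 and Cdk6 had enough counts for a test, and none was called. Over whole libraries, Ccnd1 had 72.4 CPM in the wildtype and 131 CPM in the knockout library (ratio 1.81, 1.38 to 2.39), Cdk6 2036 and 2889 CPM (1.42), Ccnd2 2030 and 2591 CPM (1.28), Cdk4 344 and 425 CPM (1.24) and Ccnd3 35.3 and 26.9 CPM (0.762). The active-like class was 19.5% of wildtype and 28.4% of knockout cells. Effects of genotype and of library cannot be told apart. The hash tags assigned 82, 142 and 239 wildtype and 116, 157 and 133 knockout cells to 3 mice each. Aplp1 itself had 4, 15 and 22 counts (101, 228 and 218 CPM) in the wildtype mice and 0, 7 and 0 counts (94.0 CPM in the second) in the mice labelled knockout, so the second of these was near the first wildtype mouse.

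Over these mice Ccnd2 had 1362, 1232 and 605 CPM in wildtype and 265, 1275 and 1667 CPM in the mice labelled knockout, so that the groups overlapped. Cdk6 had 1085, 1338 and 823 CPM against 654, 1436 and 1696 CPM, and Cdk4 25.2, 213 and 287 CPM against 125, 295 and 159 CPM, also overlapping. By edgeR's quasi-likelihood test the log2 ratio of knockout to wildtype was 0.08 (SE 0.44) for Ccnd2, 0.08 (SE 0.61) for Cdk4 and 0.27 (SE 0.33) for Cdk6, with adjusted p of 0.9999, 0.9999 and 0.9995. None of the 3 tested genes was called, against 0% of 1109 genes (61 at an unadjusted p under 0.05 by edgeR, and 1 called by DESeq2). Ccnd1, with 1 to 11 counts a mouse, and Ccnd3, with 1 to 5, were under the count filter. With cells of 3 or more tag counts Ccnd1 passed it. Its log2 ratio by edgeR was then 1.51 (SE 0.58, unadjusted p 0.0187, adjusted p 0.952), so it was not called. With any count kept, the log2 ratio was 0.81 (SE 0.85) for Ccnd1 and -0.87 (SE 1.33) for Ccnd3, neither called. The tags sat mostly on quiescent-like cells, 328 of 1286 and 244 of 808, and on 35 of 430 and 40 of 534 active-like cells. The test thus speaks little to the class where Cdk6 and Cdk4 were highest. Tags also sat on 30 of 30 and 40 of 41 microglia-like and on 15 of 16 and 20 of 20 endothelial-like cells. The mouse sums therefore mix in cells outside the lineage.

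In the neurosphere fractions, Ccnd1 and Cdk4 were abundant in the input and every precipitate held less of the cyclins and Cdk4 in CPM. As CPM of the library total, Ccnd1 had 1256 and 1716 in the inputs, 93.4 and 115 with IgG, 157 and 129 after CPEB4 precipitation from wildtype and 117 and 117 after precipitation from cells labelled knockout. Ccnd2 had 226 and 659, 117 and 165, 162 and 204, and 172 and 116 CPM in the same order, with the widest gap between input replicates among the abundant members. Ccnd3 had 87.3 and 105, 4.97 and 5.50, 10.6 and 8.79, and 10.6 and 7.61 CPM.

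The kinases differed from each other. Cdk4 followed the cyclins, with 706 and 780 CPM in the inputs, 31.7 and 37.1 with IgG, 48.1 and 37.0 in wildtype and 27.1 and 43.3 in knockout precipitates. Cdk6 was near the detection limit in the inputs, at 1.43 and 0.754 CPM (25 and 12 counts), and had 1.49 and 3.55 CPM with IgG, 7.80 and 8.64 CPM in wildtype and 21.5 and 1.20 CPM in knockout precipitates. In such bulk fractions, fewer cells of a type and less RNA per cell cannot be told apart. The knockout replicates of Cdk6 lay on either side of all other libraries but one input.

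**Figure D5:**
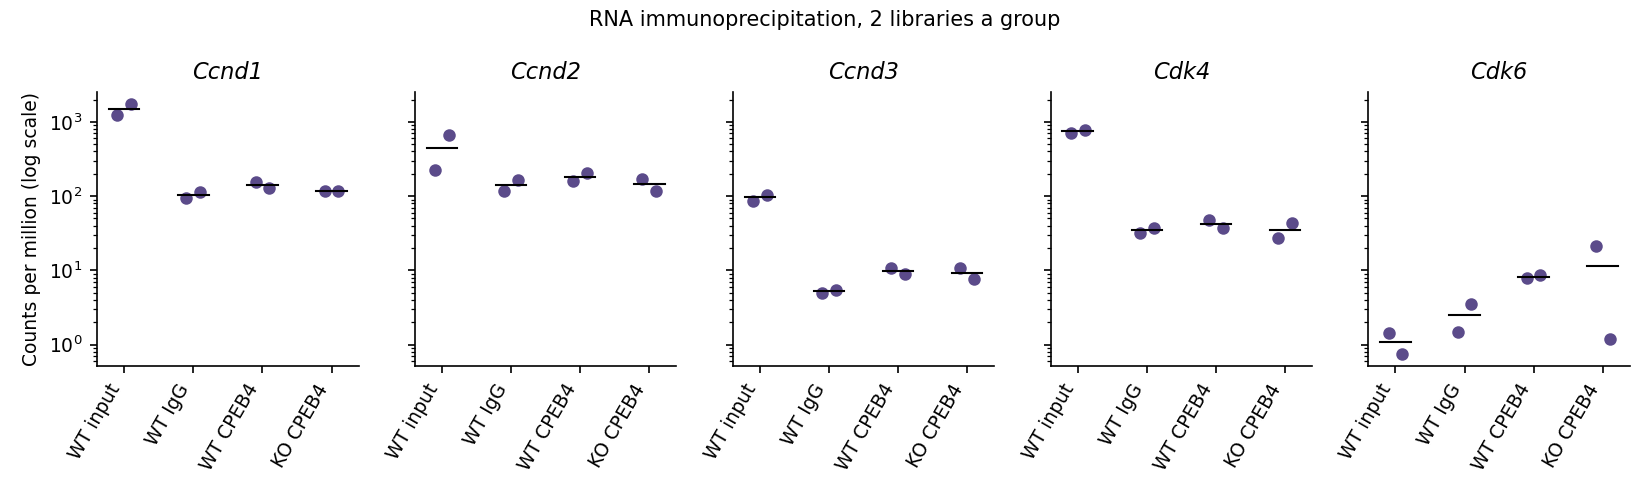
Level of each gene in CPM of the library total (log axis) in the 8 RIP libraries; points are the 2 libraries of a group and bars their mean. Ccnd1, Ccnd3 and Cdk4 are lower in all precipitates than in the inputs; for Cdk6 the order is the opposite apart from 1 knockout library, and for Ccnd2 the direction against input flips between scalings.

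Against IgG, the background of the precipitation, none of the 5 was called in the wildtype CPEB4 precipitate. All 8 libraries entered 1 edgeR quasi-likelihood fit over 17062 genes with TMM scaling, and the contrasts below share libraries, so they are not independent of each other. The log2 ratio was -0.58 for Ccnd1 (95% interval -1.78 to 0.63, adjusted p 0.71), -0.63 for Ccnd2 (-1.92 to 0.66, 0.706), -0.15 for Ccnd3 (-1.07 to 0.77, 0.91), -0.73 for Cdk4 (-2.06 to 0.60, 0.674) and 0.72 for Cdk6 (-0.87 to 2.32, 0.724). The background was 0% of genes in either direction, with 1360 at an unadjusted p under 0.05 by edgeR; DESeq2 called 6 lower and 4 higher. With scaling to library totals, which moved the median log2 ratio of all genes by 1.02, all 5 ratios were positive (0.46, 0.38, 0.89, 0.31 and 1.70) and none was called, so the direction for Ccnd1, Ccnd2, Ccnd3 and Cdk4 flips with the scaling. In CPM of the library total, both wildtype CPEB4 precipitates lay above both IgG libraries for Ccnd1, Ccnd3 and Cdk6. For Ccnd2 and Cdk4 the replicates overlapped. The share of all genes with such a gap was not counted, so the gap is no result about these genes.

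Against input, 4 of 5 were called: Ccnd1, Ccnd3 and Cdk4 lower and Cdk6 higher in the wildtype CPEB4 precipitate, where 27.6% of genes were lower and 27.4% higher (4702 and 4678; with library totals 7924 and 1089). By edgeR, Ccnd1 was 3.76-fold lower (log2 ratio -1.91, SE 0.56, adjusted p 0.0157), Ccnd3 3.57-fold lower (-1.84, SE 0.41, 0.00467) and Cdk4 6.30-fold lower (-2.65, SE 0.63, 0.0061). Cdk6 had a log2 ratio of 4.38 (SE 0.80, adjusted p 0.00195) from 12 to 115 counts a library. Ccnd2 was not called, at 0.20 (-1.09 to 1.48, adjusted p 0.786), and its sign turned with library totals (-1.28, 0.0961). The call for Ccnd1 was lost by edgeR without the second input (adjusted p 0.074), the first precipitate (0.091) or the second precipitate (0.0986), and that for Cdk6 with library totals (0.0516).

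The IgG control was compared with input in the same fit. By edgeR, Ccnd3 was lower with IgG (log2 ratio -1.69, SE 0.42, adjusted p 0.0149), as was Cdk4 (-1.92, SE 0.61, 0.0366), and Cdk6 was higher (3.65, SE 0.80, 0.00964), while Ccnd1 (-1.33, SE 0.55, 0.0821) and Ccnd2 (0.83, SE 0.58, 0.283) were not called. So 3 of 5 were called where 15.6% of genes were lower and 18.2% higher (2661 and 3099; with library totals 11176 and 426). Both contrasts with input share the input libraries. These calls rested on single libraries: by edgeR, Cdk4 was lost without any one of the 4 libraries (adjusted p 0.0899 to 0.200), Ccnd3 without the second input (0.0769) or either IgG library (0.07 and 0.132), and Cdk6 without either input (0.0535 and 0.0763) or the second IgG library (0.0902). With library totals Cdk6 was at 1.20 (adjusted p 0.343), Ccnd2 turned to -1.65 (0.033) and Ccnd1 was called (-3.84, 0.000311). Ccnd1 was also called, as the fourth of 5, with DESeq2 (adjusted p 0.0338) and, by edgeR, with any count kept (0.0256), with the 4 libraries alone (0.0152) and with a block of crossed replicate numbers (0.0426).

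Between wildtype precipitates and those labelled CPEB4 knockout, none of the 5 was called, against 0% of genes in either direction (136 at an unadjusted p under 0.05 by edgeR; 0 called by DESeq2). The log2 ratios of wildtype to knockout were -0.34 for Ccnd1 (-1.54 to 0.86), -0.12 for Ccnd2 (-1.41 to 1.16), -0.39 for Ccnd3 (-1.30 to 0.51), -0.50 for Cdk4 (-1.82 to 0.83) and -0.33 for Cdk6 (-1.84 to 1.18), each with an adjusted p of 1 by edgeR. With library totals the cyclins and Cdk4 turned positive (0.28, 0.34, 0.09 and 0.27). The intervals leave room for differences of more than 2-fold in at least one direction for every one of the 5.

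Of the pathway lists, 41 genes were tested in the RIP fit. Against IgG 0 of 41 were called, and between wildtype and knockout precipitates also 0 of 41. Against input 12 were lower and 11 higher, shares near the 27.6% and 27.4% of all genes, among them 4 of 6 inhibitors and 2 of 3 Cdk4 chaperones lower and 2 of 3 subunits of the CDK-activating kinase higher. The smallest adjusted p by edgeR were for Gli2, a transcription factor of hedgehog signalling (log2 ratio 3.56, SE 0.44, 0.0005), and E2f3 (2.43, SE 0.39, 0.00128), both higher, and for Cdkn2a, the gene of p16INK4a (-2.49, SE 0.39, 0.00112), and the chaperone Cdc37 (-2.42, SE 0.39, 0.00127), both lower. IgG against input called 6 lower and 7 higher, again near the shares of all genes, 15.6% and 18.2%; there Gli2 had 2.21 (adjusted p 0.00565), Dyrk1a, a kinase that marks Ccnd1 for degradation, 1.93 (0.0105), Cdc37 -1.60 (0.0134) and Cryab -2.92 (0.0135).

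Genes with the most similar profile were sought over 10 cell groups, the cycling and non-cycling cells of both cultures and the 3 lineage classes of both fresh libraries, among 4684 genes. These groups share libraries, and fresh and cultured cells differ in depth and processing, so Pearson's r of log2(CPM + 10) is a description only. Ccnd1 was most like Efs (0.94), Tpm3 (0.91) and Map2 (0.88), and Ccnd2 like Nsg2 (0.93), Sipa1l1 (0.92) and Fam107b (0.91). Ccnd3 was most like Lamtor3 (0.99), Cnih1 (0.98) and Spag7 (0.98), all low in fresh and higher in cultured cells. Cdk4 was most like Klf10 (0.96), Hmgb1 (0.93) and Arpc4 (0.92), and Cdk6 was like Sncaip (0.98) and Gm12184 (0.98), both highest in the active-like fresh classes.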

How the data were processed

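The authors deposited raw counts throughout: gene by cell counts for 4 single-cell libraries (oligo(dT) capture, 100 and 150 bp reads per the labels), hash tag counts per cell, and gene counts for 8 RIP libraries. Bowtie2, SAMtools, Cell Ranger and the mm10 build are named in the submitters' processing notes; no source used here gives their versions, the annotation, the strand setting or any removal of doublets. The 5 genes and all lists were chosen with earlier results of these data known.

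Single-cell counts were summed and given as CPM with exact Poisson or binomial 95% intervals, which cover counting error only. Culture cells were thinned to 4500 counts, losing none. Fresh cells were clustered with scanpy 1.11.5 (2000 variable genes, 30 components, 15 neighbours, Leiden resolution 1); a named cluster had 3 or more raised markers, more than of any other list, and no more markers of other lists than of its own among its 10 leading genes. The last condition left 2 clusters with raised quiescent markers unnamed. No doublet caller was run and free RNA was not removed. Cells went to a mouse with 10 or more tag counts and 75% from one tag. Ratios needed 10 counts. RIP and mouse sums were tested with edgeR 4.0.16 (filterByExpr, TMM, quasi-likelihood, Benjamini-Hochberg at 0.05, R 4.3.3) and, as an alternative, DESeq2 1.42.0. Only the edgeR contrast of wildtype CPEB4 precipitate against IgG was checked on simulated data. Named pathway genes were the 2 largest culture ratios each way with 100 or more counts and the 2 smallest adjusted p each way in RIP; the rest were chosen after their values were seen. Culture, fresh and RIP tables were processed separately, so levels were compared only within each, apart from the likeness of profiles, where 1 gene that the rule names is not reported here.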

Additional observations from a re-analysis of the deposited data

How the results depend on the processing

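Fresh cells held few counts each, which limits Ccnd1 and Ccnd3 to at most 96 and 20 counts a lineage class, and each RIP group had 2 libraries. Among single-gene values under all alternatives, 259 were scored as the same, 60 as moved and 27 as reversed, while 15 lost and 5 gained a call. Culture, cycling and detection values were scored as the same or moved by the counting interval of the main value, not by direction. The 259 are therefore not a count of values that kept their direction. Of the main counts 115 stayed within 1.5 times and 35 moved. The cause of these shifts was not tested.

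The number of genes passing 2-fold between cycling and non-cycling cells was 1 with the phase lists. This was Ccnd1 with BMP4, where 1 cell held 88 of the 153 counts of the cycling class. Knockout Ccnd1 in active-like against quiescent-like cells was 0.828 without cells that hold LTO1, a filter that removes most cells with Ccnd1. Over mice, 1 gene was called by DESeq2 and 1 with any count kept. For wildtype precipitate against IgG, genes lower and higher were 115 and 50 with any count kept, 377 and 157 in a fit of the 4 libraries alone, and 6 and 4 with DESeq2; with library totals Ccnd1, Ccnd2, Ccnd3 and Cdk4 turned to 0.46, 0.38, 0.89 and 0.31. Against input the genes lower and higher were 7924 and 1089 with library totals, and Ccnd2 turned to -1.28 with them and to -0.084 with any count kept. For IgG against input they were 11176 and 426 with library totals, 4292 were lower with any count kept, and Ccnd2 turned to -1.65 with totals. For wildtype against knockout precipitates, 25 genes were lower and 25 higher with any count kept, and totals turned Ccnd1 to 0.28, Ccnd2 to 0.34, Ccnd3 to 0.088 and Cdk4 to 0.27.

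Leaving out 1 sample at a time, 0 to 1 genes were called over mice, where Ccnd2 ranged from -0.41 to 0.48, Cdk4 from -0.39 to 0.60 and Cdk6 from -0.014 to 0.52. Against input, 3 to 4 of the 5 were called, with 2112 to 3516 genes lower and 2955 to 3669 higher, and Ccnd2 ranged from -0.46 to 1.16. For IgG against input 0 to 1 of the 5 were called, with 193 to 719 genes lower and 1003 to 1746 higher. Between wildtype and knockout precipitates 0 to 4 genes were lower; Ccnd1 ranged from -0.88 to 0.60, Ccnd2 from -0.49 to 0.41, Ccnd3 from -0.82 to 0.18, Cdk4 from -1.19 to 0.96 and Cdk6 from -1.07 to 1.62. Fewer libraries enter these fits, and a library left alone in its group is assumed to vary like the others.

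Same-numbered RIP libraries share only a number in the labels. The correlation of their deviations ran from -0.515 (IgG and knockout precipitate) to 0.364 (wildtype and knockout precipitates) over 12471 genes. A fit with the replicate block called the same number of the 5, 4 against input and 3 for IgG against input, with 4514 genes lower and 4591 higher, and 2376 and 3071. With the IgG numbers crossed, an alternative chosen after seeing the data, the block called 5217 and 5220, and 3554 and 3842; 1 gene was lower against IgG, and Cdk6 was at 0.037 between wildtype and knockout precipitates. The values without the BMP4 cell of highest Ccnd1, without small clusters and without cells that hold an overlapping gene were also chosen after seeing the data.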

Other observations

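Outside the stem cell lineage, the 5 genes were found in classes of few cells. Microglia-like cells (30 wildtype and 41 knockout) had Cdk6 at 655 and 1733 CPM, Ccnd1 at 262 and 296 CPM and Ccnd2 at 0 and 84.5 CPM, so Ccnd2, the leading D cyclin of the lineage in counts, was low there. Mature neuron-like cells had 0 Ccnd1 counts among 19 wildtype cells and 17 counts (407 CPM) among 35 knockout cells. Oligodendrocyte-like cells (11 and 16) had 4 Ccnd1 counts in each library, 721 and 425 CPM, with Ccnd2 at 0 and 318 CPM.

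The BMP4 cell with 88 Ccnd1 counts had 43673 counts in all. It held 4 Ccnd2 counts where the median of the other cells was 65.5, 8 of Ccnd3, 18 of Cdk4 and 0 of Cdk6. Besides Mbp (393 of 418 counts, 94.0%) it held 10 of 13 counts of Mag, also a myelin gene. The cultures were otherwise not without oligodendrocyte lineage markers: 7 of 8 were above 0 in each, with sums of 1737 and 1366 CPM with BMP4 and EGF.

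One active-like cluster of 287 fresh cells was named on only 3 of 12 markers and had a low median of 246 counts per cell. Its Cdk6 level was 5971 and 7886 CPM, above the 5001 and 5436 CPM of the main active-like cluster of 677 cells, which had 952 counts per cell and 11 markers, while its Ccnd2 level was 1537 and 3119 CPM against 3828 and 4119 CPM. Cdk4 stood at 261 and 196 CPM in the smaller cluster against 678 and 713 CPM in the main one. The largest quiescent-like cluster had 248 and 223 CPM, so the high Cdk4 of the active-like class came from its main cluster.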
